A study of Mus musculus with 6 samples.

Results

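Genes that mark macrophages and neutrophils were examined in mouse regulatory T cells (Treg) sorted as CD4+YFP+. The set holds 36 genes chosen by name, from a list of macrophage, neutrophil and shared myeloid markers, and all 36 were measured among the 12393 genes tested. The choice was made with earlier results of these data known. Shares and medians of the set therefore describe it and are not an independent test. A gene is represented by its brightest probe set over the 6 arrays, among those annotated to that gene alone. The 3 control arrays carry B6_WT titles and the genotype Foxp3cre. The other 3 carry USP7 titles. The series text gives these mice as fl-Usp7/Foxp3cre, a conditional Usp7 knockout, while their genotype field reads fl-HDAC11/Foxp3cre. The conflict is unresolved, so the names control and USP7-titled are used here. Both groups share Foxp3cre, a Cre recombinase driven by Foxp3, the C57BL/6 background and the YFP gate. Age, sex and any pooling of animals are not given in the labels used here. The series text calls the 3 samples of a group independent without naming animals, so a p-value reflects the spread over samples, which may be technical.

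Macrophages and neutrophils are phagocytes: they take up microbes and dying cells and are not part of the T cell lineage. Macrophages depend on signals through the receptor Csf1r and carry scavenger receptors and complement C1q. Neutrophils store antimicrobial proteins such as lipocalin 2 and cathelicidin in granules, and hold large amounts of the calcium-binding proteins S100a8 and S100a9. Both lineages need the transcription factors PU.1, encoded by Spi1, and C/EBP. Several of these genes are also used by B cells, dendritic cells or activated lymphocytes, so no single gene identifies a cell type in bulk RNA.

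The sort carried the RNA of T cells. Of 14 measured T cell and Treg markers, 14 lay above the array median over genes in controls and 13 in USP7-titled arrays, the exception being Foxp3, with means of 12.98 and 7.004. All levels are log2 values as deposited. Usp7 changed by -1.01 (SE 0.07, limma adjusted p = 1.32e-06) and Hdac11 by -0.58 (SE 0.16, limma adjusted p = 0.0154). Their control means were 11.68 and 6.38. A second probe set of Usp7 was at -0.98 and one of Hdac11 at -0.22 (limma adjusted p = 2.24e-05 and 0.355). Of all genes tested, 32.9% had a limma adjusted p under 0.05. Xist had means of 12.50 in control and 5.30 in USP7-titled arrays, and the Y-linked Eif2s3y of 4.505 and 10.15. The sex of the mice therefore cannot be told apart from the group anywhere below. Array medians ran from 8.09 to 8.16 over the genes tested. Pearson's r across gene probe sets was 0.9913 to 0.9956 within groups and 0.9688 to 0.9739 between them.

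Macrophage and neutrophil markers were mostly higher in USP7-titled arrays. Of the 36 genes, 22 rose, 1 fell and 13 did not pass the threshold (limma, Benjamini-Hochberg adjusted p under 0.05 over all genes). The 22 are 61.1% of the set, while of all genes tested 32.9% were called, 17.0% as higher and 15.9% as lower. At least 2-fold rises were called for 14 of the 36 genes, against 3.12% of all genes. The median log2 change was 0.67 for the 36 genes and -0.05 for all genes. In 20 of the 36 genes every USP7-titled array read above every control array, and in 1 every array read below, against 20.9% and 24.7% of all genes, 45.6% together. Scaled to 18 hybridization spike probe sets, 25 of the 36 rose and 0 fell. In that setting all genes moved to a median of 0.11, with 2968 called higher and 944 lower against 2102 and 1976 as deposited. In these bulk samples a difference in the number of cells of a type and one in RNA per cell cannot be told apart.

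**Figure D1:**
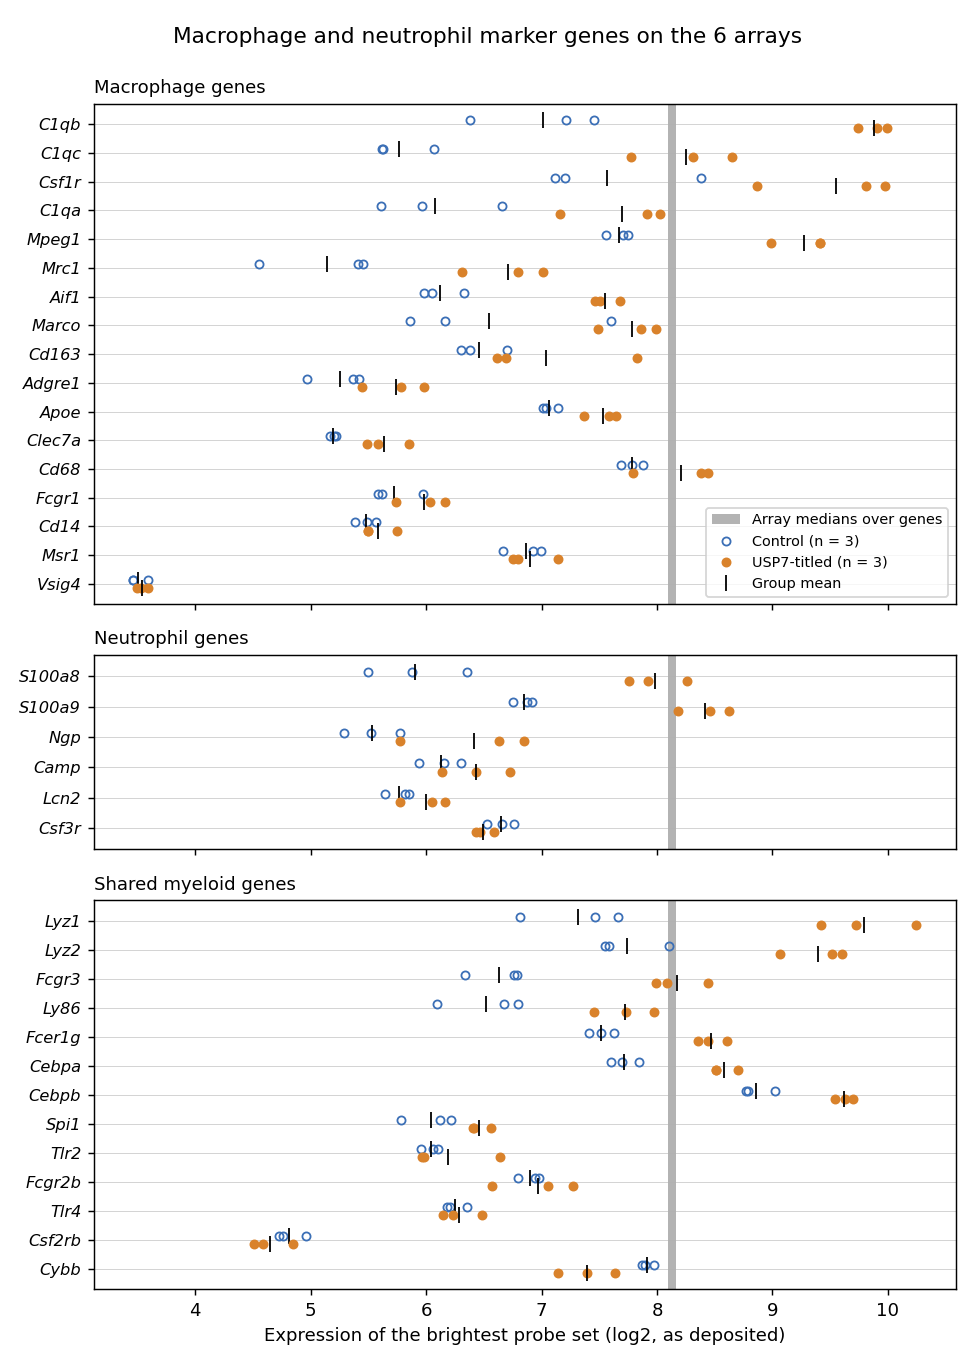
Log2 expression of the brightest probe set (horizontal axis) of each of the 36 genes on each array, with open blue points for the 3 control arrays, filled orange points for the 3 USP7-titled arrays, ticks for group means and a grey band for the array medians over genes (8.09 to 8.16). Most genes sit below the band in controls; C1qb goes from a mean of 7.02 to 9.88 and Lyz1 from 7.31 to 9.80.

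**Figure D2:**
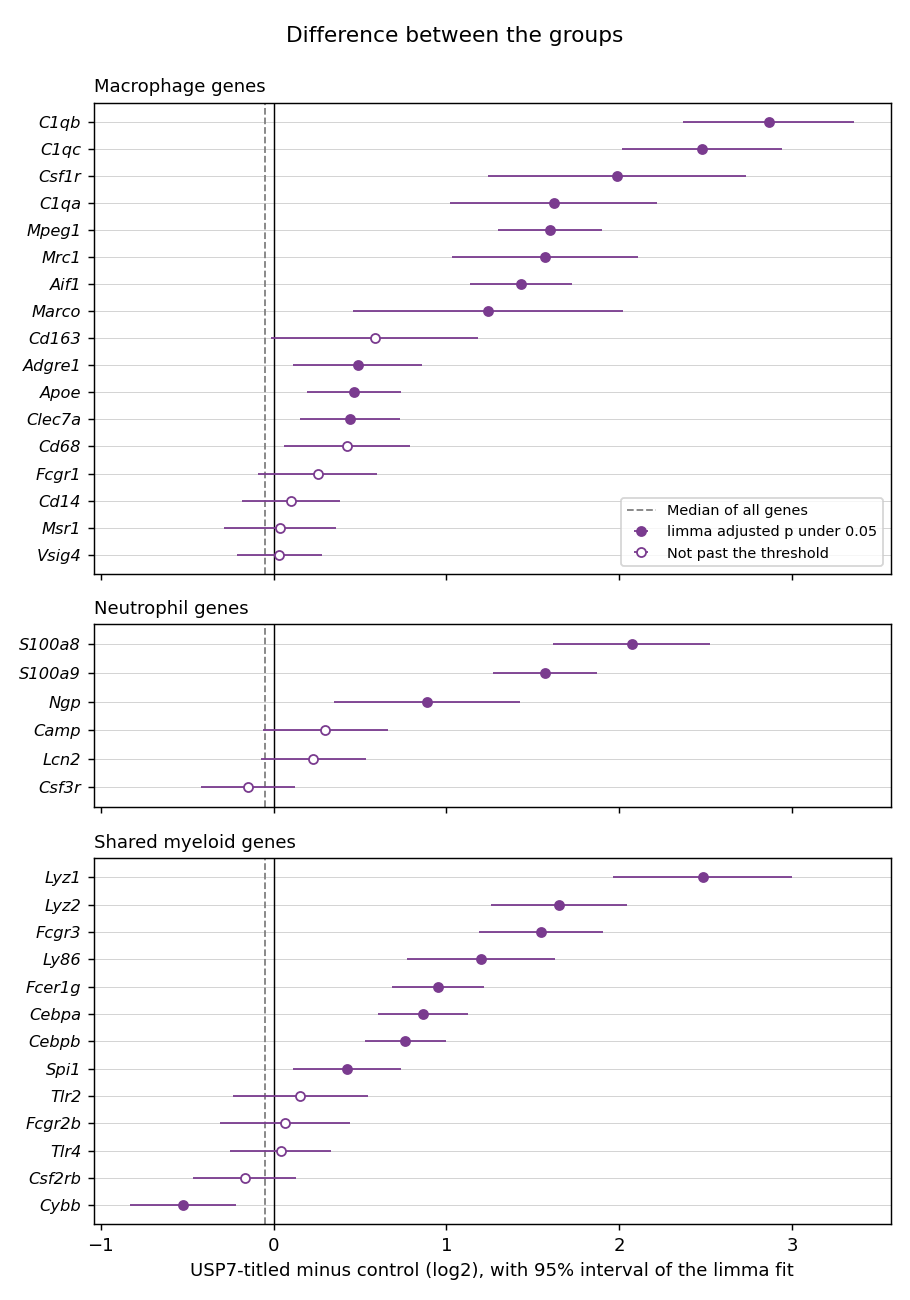
Difference between USP7-titled and control arrays on the log2 scale (points) with the 95% interval of the limma fit (bars), for 17 macrophage, 6 neutrophil and 13 shared myeloid genes; filled points passed the threshold and the dashed line is the median of all genes, -0.05. Cybb, at -0.52, is the only filled point below 0.

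Complement C1q, the recognition protein of the classical pathway, is built from chains encoded by C1qa, C1qb and C1qc, which lie next to each other on chromosome 4 and are made mainly by macrophages. All 3 rose. C1qb read 7.21, 6.38 and 7.46 on the control arrays and 9.74, 9.99 and 9.91 on the USP7-titled ones. Its change by the brightest probe set was the largest of the 36, 2.86 (SE 0.22, 7.28-fold, limma adjusted p = 3.34e-06), and both further C1qb probe sets rose, by 3.18 and 1.81. The brightest and the one at 3.18 are of the _x_at kind, whose probes may also bind related transcripts. The one at 1.81 is of the plain _at kind. C1qc read 5.61, 5.62 and 6.07 on the control arrays and 8.31, 8.65 and 7.78 on the USP7-titled ones, a log2 difference of 2.48 (SE 0.21, 5.57-fold, limma adjusted p = 6.3e-06). C1qa read 5.97, 5.61 and 6.66 on the control arrays and 8.03, 7.91 and 7.16 on the USP7-titled ones, a log2 difference of 1.62 (SE 0.27, 3.08-fold, limma adjusted p = 0.00083). The groups did not overlap for any of the 3 chains, although C1qa on control replicate 3 and USP7-titled replicate 3 came within 0.50 of each other. Control replicate 3 was the highest control for each chain.

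The bases before the annotated starts of C1qb and C1qc are shown because these neighbours had the largest changes among the macrophage genes. They are from RefSeq (GRCm38.p6), 5′ to 3′ on the gene's strand, and end at the base before the outermost annotated start. Capitals mark the letters GAGGAA and AGGAAGT, which resemble the core bound by PU.1 and related ETS factors, and TTGCNNAA, which resembles a C/EBP site, on either strand.
C1qb, chr4:136886201-136886450 (- strand): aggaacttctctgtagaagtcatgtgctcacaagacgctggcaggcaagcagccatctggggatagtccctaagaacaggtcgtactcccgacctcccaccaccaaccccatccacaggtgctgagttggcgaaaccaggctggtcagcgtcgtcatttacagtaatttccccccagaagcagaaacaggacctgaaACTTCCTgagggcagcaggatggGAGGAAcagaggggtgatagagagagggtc
C1qc, chr4:136892937-136893164 (- strand): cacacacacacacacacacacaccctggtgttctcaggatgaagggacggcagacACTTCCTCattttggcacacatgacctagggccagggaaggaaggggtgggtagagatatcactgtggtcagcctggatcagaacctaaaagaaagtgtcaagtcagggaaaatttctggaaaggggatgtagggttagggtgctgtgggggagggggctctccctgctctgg
Each window holds 1 match to GAGGAA and 1 to AGGAAGT, which overlap in C1qc, and 0 to TTGCNNAA.

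Lysozyme, which cleaves bacterial cell walls, is encoded in mice by the near-identical neighbours Lyz1 and Lyz2 on chromosome 10. Lyz2 is the form typical of macrophages and neutrophils, and Lyz1 is best known from the Paneth cells of the gut. Lyz2 read 7.55, 7.58 and 8.10 on the control arrays and 9.06, 9.60 and 9.51 on the USP7-titled ones, a log2 difference of 1.65 (SE 0.18, 3.13-fold, limma adjusted p = 3.84e-05). Lyz1 read 7.46, 6.81 and 7.66 on the control arrays and 9.42, 9.73 and 10.25 on the USP7-titled ones, a log2 difference of 2.48 (SE 0.24, 5.59-fold, limma adjusted p = 1.43e-05), and a second probe set rose by 2.31. Both of these Lyz1 probe sets are of the _x_at kind, whose probes may also bind related transcripts. The remaining Lyz1 probe set, of the plain _at kind, gave a log2 change of 0.003 (SE 0.12, limma adjusted p = 0.99), with means of 7.24 in both groups. The gene assignment of the Lyz1 signal is therefore uncertain, and Lyz1 and Lyz2 may not be separate measurements.

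The upstream windows of the lysozyme pair show how alike the genes are, with 78.8% identical letters over 260 aligned columns. The same alignment gave 48.6% for C1qb and C1qc and 49.8% for S100a8 and S100a9.
Lyz1, chr10:117292869-117293118 (- strand): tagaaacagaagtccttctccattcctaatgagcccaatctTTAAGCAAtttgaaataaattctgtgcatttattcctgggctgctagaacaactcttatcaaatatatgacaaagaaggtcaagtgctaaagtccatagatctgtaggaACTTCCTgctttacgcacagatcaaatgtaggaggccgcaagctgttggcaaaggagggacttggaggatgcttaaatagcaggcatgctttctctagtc
Lyz2, chr10:117282273-117282522 (- strand): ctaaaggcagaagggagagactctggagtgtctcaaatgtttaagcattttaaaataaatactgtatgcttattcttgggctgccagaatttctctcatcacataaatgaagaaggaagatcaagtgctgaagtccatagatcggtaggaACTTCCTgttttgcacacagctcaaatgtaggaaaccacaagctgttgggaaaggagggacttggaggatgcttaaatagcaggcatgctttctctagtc
Both windows hold ACTTCCT, the reverse strand of AGGAAGT, with 93 bases between it and the start in each. A match to TTGCNNAA was found in the Lyz1 window only.

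Among macrophage surface receptors the changes were uneven. Csf1r, the receptor for the growth factors CSF1 and IL-34, read 7.11, 7.20 and 8.38 on the control arrays and 8.87, 9.98 and 9.81 on the USP7-titled ones. Its change was 1.99 (SE 0.34, 3.96-fold, limma adjusted p = 0.000913), and the groups did not overlap, but control replicate 3 lay 1.18 above the next control. A probe set of the _s_at kind rose by 1.21 (SE 0.14), while the third, with a control mean of 7.39, was at 0.03 (SE 0.13, limma adjusted p = 0.885). Mrc1, the mannose receptor, read 5.41, 5.45 and 4.55 on the control arrays and 6.80, 7.01 and 6.31 on the USP7-titled ones, a log2 difference of 1.57 (SE 0.24, 2.97-fold, limma adjusted p = 0.000507). It stayed dim: its USP7-titled mean lay 1.44 below the array median.

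Mpeg1, which encodes the pore-forming protein perforin-2 of phagocytes, read 7.55, 7.75 and 7.70 on the control arrays and 8.98, 9.41 and 9.41 on the USP7-titled ones. Its change of 1.60 (SE 0.14, 3.03-fold, limma adjusted p = 6.8e-06) had tight groups that did not overlap. Aif1, the actin-binding protein known as Iba1, read 6.32, 5.98 and 6.05 on the control arrays and 7.51, 7.68 and 7.47 on the USP7-titled ones, a log2 difference of 1.43 (SE 0.13, 2.7-fold, limma adjusted p = 1.34e-05). The scavenger receptor gene Marco changed by 1.24 (SE 0.35, 2.36-fold, limma adjusted p = 0.0193), but its groups overlapped. Control replicate 1 read 7.60, above the lowest USP7-titled array at 7.49, while the other controls read 6.17 and 5.86. Without control replicate 2 its change was 1.05 (limma adjusted p = 0.0827), without control replicate 3 0.90 (limma adjusted p = 0.0728), and without USP7-titled replicates 1 and 2 in turn 1.20 and 1.13 (limma adjusted p = 0.0555 and 0.058). Without the variance trend its limma adjusted p was 0.0539.

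Smaller rises were called for Apoe, the lipid carrier apolipoprotein E, with a change of 0.47 (SE 0.12, 1.38-fold, limma adjusted p = 0.0129); for Clec7a, the beta-glucan receptor dectin-1, with 0.44 (SE 0.13, 1.36-fold, limma adjusted p = 0.023); and for Adgre1, an adhesion receptor long used to stain mouse macrophages, with 0.49 (SE 0.17, 1.4-fold, limma adjusted p = 0.0486). These rises were near the limit of the test. Without control replicate 2 the changes were 0.44 for Apoe (limma adjusted p = 0.0546), 0.45 for Clec7a (limma adjusted p = 0.0691) and 0.34 for Adgre1 (limma adjusted p = 0.201). Clec7a also missed the threshold without control replicate 1, control replicate 3 or USP7-titled replicate 1 (limma adjusted p = 0.0608, 0.0693 and 0.0617). Adgre1 missed it without control replicate 1, USP7-titled replicate 1 or USP7-titled replicate 2 (limma adjusted p = 0.0751, 0.143 and 0.108), and also with all probe sets tested or without the variance trend (limma adjusted p = 0.0551 and 0.0649). With control replicate 2 left out, 7 of 17 macrophage genes were called higher instead of 11. The share of all genes called higher also went down, from 17.0% to 13.7%.

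The remaining macrophage genes did not pass. Cd68, a lysosomal membrane protein of phagocytes, read 7.78, 7.88 and 7.69 on the control arrays and 7.80, 8.44 and 8.38 on the USP7-titled ones, a change of 0.42 (SE 0.17, 95% interval 0.06 to 0.79, limma adjusted p = 0.0746). USP7-titled replicate 1 lay within the controls, and without it the change was 0.63 (limma adjusted p = 0.00365). Cd163, the haemoglobin scavenger receptor, read 6.38, 6.70 and 6.30 on the control arrays and 6.61, 6.69 and 7.82 on the USP7-titled ones, a change of 0.58 (95% interval -0.01 to 1.18, limma adjusted p = 0.129) that came from USP7-titled replicate 3. Without that array it was 0.19. Fcgr1, the high-affinity IgG receptor, was at 0.25 (95% interval -0.09 to 0.60). Cd14, the lipopolysaccharide co-receptor, was at 0.10 (95% interval -0.18 to 0.38), the scavenger receptor Msr1 at 0.04 (95% interval -0.29 to 0.36) and the complement receptor Vsig4 at 0.03 (95% interval -0.21 to 0.28). Vsig4 was the dimmest probe set of the 36, reading 3.46 to 3.59 on all 6 arrays.

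Of the 6 neutrophil genes S100a8, S100a9 and Ngp rose, and Camp, Lcn2 and Csf3r did not pass. S100a8 and S100a9, neighbours on chromosome 3, encode the subunits of calprotectin, the most abundant cytosolic protein of neutrophils. S100a8 read 6.35, 5.50 and 5.87 on the control arrays and 7.92, 7.76 and 8.26 on the USP7-titled ones, a log2 difference of 2.07 (SE 0.21, 4.2-fold, limma adjusted p = 2.06e-05). S100a9 read 6.87, 6.92 and 6.75 on the control arrays and 8.45, 8.62 and 8.18 on the USP7-titled ones, a log2 difference of 1.57 (SE 0.14, 2.97-fold, limma adjusted p = 7.41e-06). Every USP7-titled array lay above every control for both genes.

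The S100 pair is the part of the neutrophil set that moved furthest, and the bases before their starts are shown for that reason, with capitals as above.
S100a8, chr3:90668821-90669070 (+ strand): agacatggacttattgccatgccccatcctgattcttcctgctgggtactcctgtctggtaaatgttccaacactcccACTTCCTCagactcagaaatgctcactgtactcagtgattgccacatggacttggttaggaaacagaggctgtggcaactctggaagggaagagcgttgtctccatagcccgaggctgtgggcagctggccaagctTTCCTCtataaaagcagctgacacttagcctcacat
S100a9, chr3:90695722-90695971 (- strand): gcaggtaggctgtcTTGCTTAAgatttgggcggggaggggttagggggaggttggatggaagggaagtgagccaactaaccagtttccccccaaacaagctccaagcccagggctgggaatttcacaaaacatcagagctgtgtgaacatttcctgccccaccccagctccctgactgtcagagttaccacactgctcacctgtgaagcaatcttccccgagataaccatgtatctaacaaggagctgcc
The S100a8 window holds 2 matches to GAGGAA and 1 to AGGAAGT, and the S100a9 window 0 of either and 1 to TTGCNNAA.

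Ngp, a granule protein of neutrophil precursors, read 5.53, 5.78 and 5.29 on the control arrays and 5.77, 6.85 and 6.63 on the USP7-titled ones, a log2 difference of 0.89 (SE 0.24, 1.85-fold, limma adjusted p = 0.0159). USP7-titled replicate 1 lay within the controls. Leaving out control replicate 3, USP7-titled replicate 2 or USP7-titled replicate 3 gave 0.77, 0.67 and 0.78, none past the threshold (limma adjusted p = 0.0614, 0.0588 and 0.0523). Camp, the cathelicidin antimicrobial peptide, read 6.30, 5.94 and 6.16 on the control arrays and 6.43, 6.14 and 6.72 on the USP7-titled ones, a change of 0.30 (95% interval -0.06 to 0.66, limma adjusted p = 0.197). Lcn2, the iron-trapping lipocalin of secondary granules, was at 0.23 (95% interval -0.08 to 0.53, limma adjusted p = 0.24). Csf3r, the receptor for the granulocyte growth factor G-CSF, was at -0.15 (95% interval -0.42 to 0.12, limma adjusted p = 0.392). In the last 3 genes the groups overlapped. Scaled to the spikes, Camp and Lcn2 passed, at 0.46 and 0.39 (limma adjusted p = 0.0469 and 0.0474), and Csf3r was at 0.01.

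Side by side, 11 of 17 macrophage genes and 3 of 6 neutrophil genes rose and 0 of either fell. Their median changes were 0.58 and 0.59. Of all genes, 17.0% were higher and 15.9% lower, with a median change of -0.05. The mean level per array of macrophage genes was 6.10 to 6.24 among controls and 7.17 to 7.32 among the other arrays, a difference of 1.04. That of neutrophil genes was 6.07 to 6.28 and 6.89 to 7.01, a difference of 0.82. No test sets these mean levels against each other. The 13 shared myeloid genes had 8 higher and 1 lower, a median of 0.76 and a difference in mean level of 0.73.

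Among the immunoglobulin receptor genes of the shared group, Fcgr3 and Fcer1g rose and Fcgr2b did not pass. Fcgr3, a low-affinity IgG receptor, read 6.33, 6.76 and 6.79 on the control arrays and 7.99, 8.44 and 8.09 on the USP7-titled ones, a log2 difference of 1.55 (SE 0.16, 2.92-fold, limma adjusted p = 3.2e-05). Fcer1g, the signalling gamma chain that Fcgr3 needs, read 7.41, 7.52 and 7.62 on the control arrays and 8.60, 8.36 and 8.44 on the USP7-titled ones, a log2 difference of 0.95 (SE 0.12, 1.93-fold, limma adjusted p = 0.000117). Fcgr2b, the inhibitory IgG receptor of myeloid and B cells, was at 0.06 (95% interval -0.31 to 0.44, limma adjusted p = 0.809), and its other 3 probe sets were at 0.09 to 0.47 and did not pass either. Tyrobp, a signalling adaptor of myeloid and NK cells that is not among the 36, rose by 1.85 (SE 0.10, limma adjusted p = 1.73e-07).

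The Toll-like receptors Tlr2 and Tlr4, which sense microbial products, did not pass by their brightest probe sets. Tlr2 was at 0.15 (95% interval -0.24 to 0.54, limma adjusted p = 0.55) and Tlr4, the lipopolysaccharide receptor, at 0.04 (95% interval -0.25 to 0.33, limma adjusted p = 0.847). A dimmer Tlr4 probe set rose by 0.55 (SE 0.14, limma adjusted p = 0.0127). Ly86, known as MD-1, is the partner of the Toll-like protein Cd180 on B cells and myeloid cells. It read 6.79, 6.09 and 6.68 on the control arrays and 7.45, 7.98 and 7.73 on the USP7-titled ones, a log2 difference of 1.20 (SE 0.19, 2.3-fold, limma adjusted p = 0.000648). Csf2rb, the shared beta chain of the receptors for IL-3, IL-5 and GM-CSF, was at -0.17 (95% interval -0.46 to 0.13, limma adjusted p = 0.387). This probe set was dim, with a mean of 4.81 in controls. A brighter one is annotated to both Csf2rb and Csf2rb2 and so was not tested; it read 7.39, 7.38 and 7.58 on the control arrays and 7.99, 7.92 and 7.92 on the USP7-titled ones, without overlap.

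All 3 myeloid transcription factors of the set rose, by 0.42 to 0.86. Cebpa, which drives the choice of the granulocyte and monocyte path, read 7.84, 7.70 and 7.60 on the control arrays and 8.51, 8.51 and 8.70 on the USP7-titled ones, a log2 difference of 0.86 (SE 0.12, 1.82-fold, limma adjusted p = 0.000212). Cebpb, which is also expressed outside myeloid cells, read 8.77, 8.79 and 9.02 on the control arrays and 9.54, 9.63 and 9.70 on the USP7-titled ones, a log2 difference of 0.76 (SE 0.11, 1.7-fold, limma adjusted p = 0.000223), while its dimmer probe set was at 0.17 (limma adjusted p = 0.33). Spi1 read 6.12, 6.21 and 5.78 on the control arrays and 6.41, 6.42 and 6.56 on the USP7-titled ones, a log2 difference of 0.42 (SE 0.14, 1.34-fold, limma adjusted p = 0.0397). The Spi1 groups did not overlap, but its call was lost when any array other than control replicate 2 was left out, with changes of 0.29 to 0.47 and limma adjusted p of 0.0537 to 0.16, and with array weights (0.39, limma adjusted p = 0.0502).

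Cybb, the catalytic subunit of the phagocyte NADPH oxidase that produces superoxide, was the only one of the 36 that fell. It read 7.87, 7.90 and 7.98 on the control arrays and 7.39, 7.63 and 7.14 on the USP7-titled ones, a change of -0.52 (SE 0.14, limma adjusted p = 0.013), and every USP7-titled array lay below every control. Scaled to the spikes it was at -0.37 and did not pass (limma adjusted p = 0.0825). Cybb and Vsig4 are the members on chromosome X, and their levels belong to groups that also differ in Xist. Of 5 measured oxidase partners, Cyba and Rac1 rose by 0.16 and 0.17, Ncf4 fell by 0.38 and 2 did not pass.

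Most of these signals were dim beside the array as a whole. In controls 1 of 36 genes, Cebpb, had a mean above the array median over genes, and in USP7-titled arrays 12 did. These were 5 of 17 macrophage genes, 1 of 6 neutrophil genes and 6 of 13 shared genes. The median gene of the set stood at percentile 27.1 of all genes in controls and 41.4 in USP7-titled arrays. C1qb moved from percentile 34.7 to 76.4, Lyz1 from 38.8 to 75.4 and Csf1r from 42.4 to 71.5. Of all genes, 9.26% of those at or below the median in controls were called higher, and 24.7% of those above it. Ranks mix the brightness of probes with the amount of RNA, so they do not order the genes by abundance, and no detection call was analysed.

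**Figure D3:**
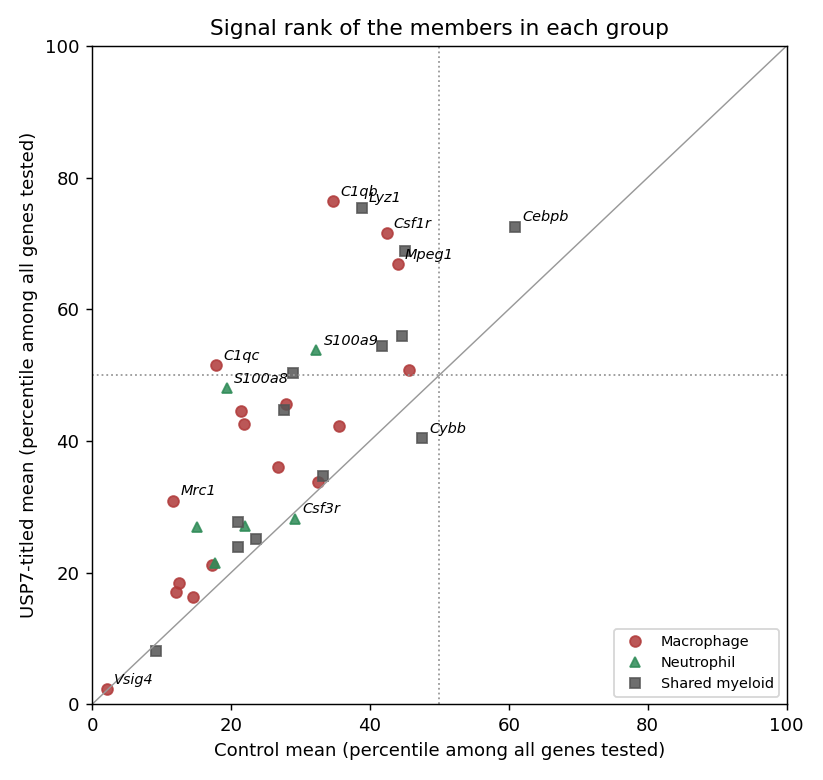
Percentile of each gene's mean signal among the 12393 genes tested, in controls (horizontal axis) and USP7-titled arrays (vertical axis), with circles for macrophage, triangles for neutrophil and squares for shared myeloid genes; dotted lines mark the median gene and the diagonal equal rank. In controls 1 gene lies right of the dotted line, and 12 lie above it in USP7-titled arrays.

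Probe sets of a gene did not always match. Of the 36 genes, 7 had more than 1 probe set. In 1 of them, C1qb, all probe sets passed the threshold, in 4 (Csf1r, Lyz1, Cebpb and Tlr4) some passed and others did not, and in 2 (Fcgr2b and Msr1) none passed. Where probes lie on the transcripts was not analysed here. With the probe sets of each gene averaged, 22 of the 36 genes rose and 1 fell, as with the brightest. In that setting 16.8% of all genes were higher and 17.8% lower. Csf1r then changed by 1.08 and Lyz1 by 1.60.

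**Figure D4:**
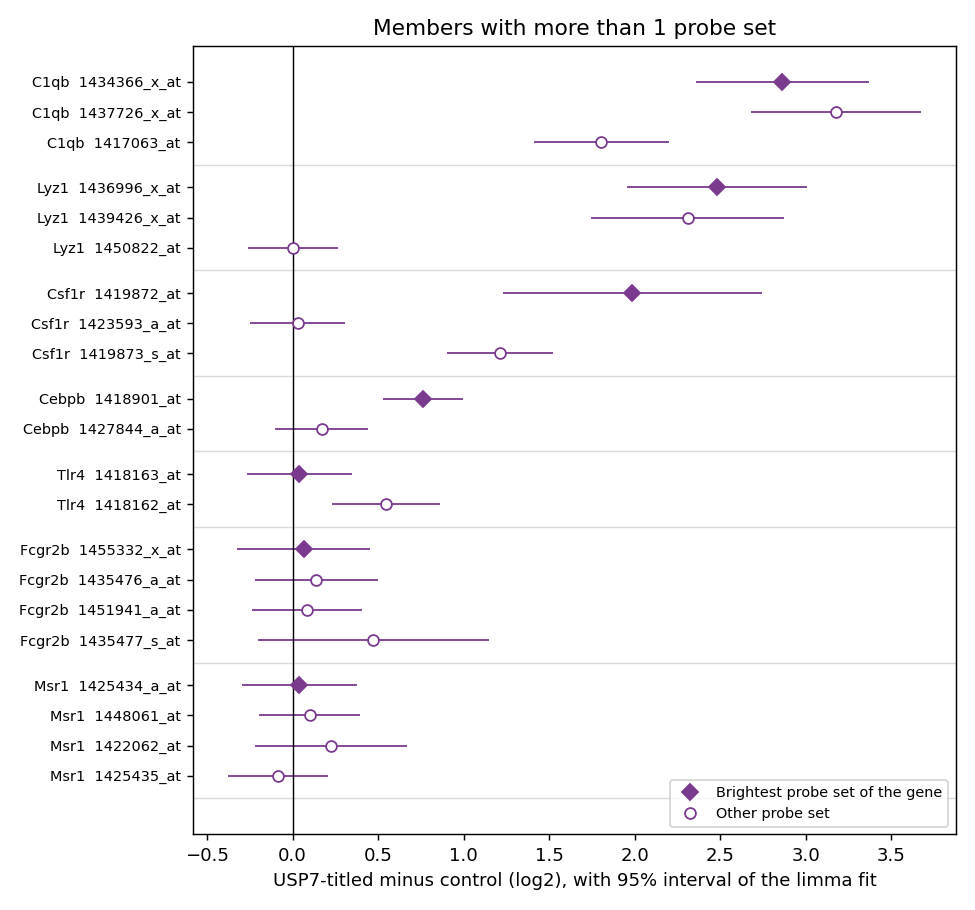
Log2 difference between USP7-titled and control arrays (horizontal axis) with the 95% interval of the limma fit for every probe set of the 7 genes that have more than 1; filled diamonds are the brightest probe set of a gene and open circles the others. For Lyz1 they range from 0.003 to 2.48 and for Csf1r from 0.03 to 1.99.

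The arrays of a group did not share an order over the 36 genes. Control replicates 1, 2 and 3 were the highest control in 14, 8 and 14 genes and the lowest in 12 each. Among the 22 genes that rose, USP7-titled replicate 2 was the highest of its group in 12 and the lowest in 2, while USP7-titled replicate 1 was the lowest in 11. C1qa, C1qb, C1qc, Csf1r and the shared myeloid genes Lyz1 and Lyz2 were all highest on control replicate 3, an observation picked after the values were seen. Other macrophage genes, Mrc1, Marco, Cd163, Cd68, Clec7a, Cd14 and Vsig4, were lowest on that array.

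Further genes of the same cell types, outside the 36, went in both directions. Of 23 other measured macrophage genes 6 rose (26.1%) and 4 fell, with a median of 0.07. For all genes the shares were 17.0% higher and 15.9% lower. The galectin Lgals3, which many activated cells make, rose by 3.50 (SE 0.09), the lectin receptor Clec4n by 1.79 (SE 0.19) and the haem-degrading enzyme Hmox1 by 1.13 (SE 0.13), while the co-stimulatory ligand Cd86 fell by 0.90 (SE 0.17). Of 17 other measured neutrophil genes 2 rose and 0 fell, with a median of -0.06. They were the chitinase-like Chil3, at 1.53 (SE 0.29), and the peptidoglycan-binding Pglyrp1, at 0.78 (SE 0.06), which was bright in both groups with means of 10.96 and 11.74. The rises among these neutrophil genes, 11.8%, were below the 17.0% of all genes.

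Partners of the receptors and factors were called in both directions, beside 17.0% of all genes higher and 15.9% lower. Of 11 measured partners of Fc and Toll-like receptors 4 rose (36.4%) and 3 fell. Besides Tyrobp, the adaptor Tirap rose by 0.65, and the receptors Tlr1 and Tlr7 fell by 0.91 and 0.85. The shares higher were 10% for the 10 ligands and chains of the colony-stimulating factor receptors, 11.1% for 9 other complement genes and 16.7% for 12 other transcription factors of myeloid cells, near or below that of all genes. Among the ligands and chains, Csf2rb2, the second beta chain found in mice, rose by 1.03 (SE 0.15), and the cytokines Csf2 and Il3 fell by 0.42 and 0.39. Among the complement genes, C6 rose by 0.39, and Cd55, which protects cells from complement, and the complement receptor Cr2 fell by 0.74 and 0.59. Among the transcription factors, Id2 and Irf8 rose by 1.24 and 0.37, Egr2 and Gfi1 fell by 0.62 each, and 8 did not pass. All calls are by limma adjusted p under 0.05.

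Markers of other cells moved in the same arrays. The summed linear signal of the 36 genes ran from 3843.7 to 4390.4 on control arrays and from 8442.3 to 10187.0 on USP7-titled ones, a ratio of means of 2.31. For 10 CD8 T and NK markers the sums were 3631.4 to 3726.7 and 12807.1 to 13654.2, a ratio of 3.62. Gzmb, Gzma and Nkg7 rose by 3.29, 3.21 and 2.76, 1 gene fell and 6 did not pass. The median change of these markers was -0.07. For 13 B cell markers the ratio was 1.19, 4 rose and 1 fell, and the median change was -0.16. The 4 that rose were Ms4a1 (0.998), Pou2af1 (0.91), H2-Eb1 (0.91) and Cd74 (0.28). Of all genes 17.0% were higher and 15.9% lower. For 10 dendritic cell markers it was 1.26, 4 rose and 1 fell. Tcf4 rose by 1.005, Clec10a by 0.98 and the bright Bst2 by 0.63, while Zbtb46, a transcription factor of conventional dendritic cells, fell by 0.96 (SE 0.14). Ccr9 was at -0.25 and did not pass. Mast cell, basophil and eosinophil markers had a ratio of 0.994 with 1 of 9 higher, Prg2, while the brightest, Hdc and Mcpt8, were at -0.19 and 0.09. Erythroid and platelet markers had a ratio of 0.841 with 0 of 7 called, and the brightest, Gp9 and Itga2b, were at -0.29 and -0.31. The 14 T cell markers had sums of 76877.8 to 79075.3 and 64195.0 to 64598.5, a ratio of 0.825, and 8 of them fell, 1 rose and 5 did not pass. Their median change was -0.13. Foxp3, with means of 12.98 and 7.004, is part of these sums, so the ratio does not measure T cell RNA as a whole. Foxp3 fell by 5.98, Ctla4, an inhibitory receptor of Treg, by 0.36 (SE 0.05), and Zap70, a kinase of T cell receptor signalling, rose by 0.48 (SE 0.09). The brightest, Cd3d and Cd2, were at -0.07 and -0.06 and did not pass. Whether other cells in the sort have a part in the rises of the 36 genes was not tested. Sums are dominated by the brightest probe sets of a list.

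**Figure D5:**
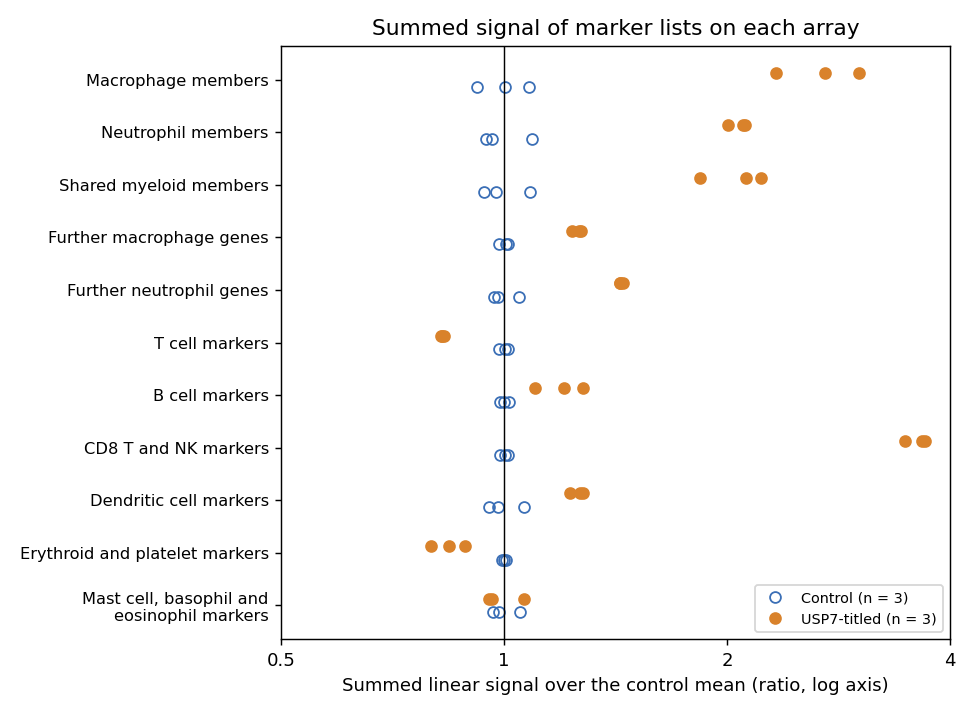
Summed linear signal of each gene list on each array, divided by the mean of the 3 control arrays (horizontal axis, log scale), with open blue points for control and filled orange points for USP7-titled arrays. Macrophage members sum to a ratio of means of 2.69 and neutrophil members to 2.07, while T cell markers, with Foxp3 among them, lie at 0.825.

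Promoter letters were compared over the 28 members that had an entry in the RefSeq promoter table, each window spanning 250 bases before to 50 after a start, both strands searched. GAGGAA was found in 15 of 28 members (53.6%) and in 31.3% of 27025 genes. AGGAAGT was found in 7 members (25.0%) and in 10.7% of genes; the motifs overlap in GAGGAAGT, held by 2 members (7.14%) and by 3.69% of genes. TTGCNNAA was found in 6 members (21.4%) and in 12.2% of genes, and its palindrome TTGCGCAA in 0 members and 0.207% of genes. Of the other letters searched, GGGGAAGT was in 2 members and 1.72% of genes, and CACGTG in 0 members and 8.09% of genes. Among the 18 members with a window that rose, 9 held GAGGAA, 6 AGGAAGT and 4 TTGCNNAA; among the other 10 members 6, 1 and 2 did. A match is a description of letters and not of binding.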

How the data were processed

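The deposited values are log2 expression per probe set on 6 arrays; the base was read from the values, and how the authors summarised and normalized them is not given in the sources used here. Each labelling started from 100 ng of total RNA, per the labels' protocols. No further normalization was applied. Of 22690 probe sets, 64 controls were set aside; 20380 had 1 gene symbol, 691 several and 1555 none, and only the first named genes. Of them, 20351 matched the RefSeq table (GRCm38.p6) by gene identifier. Groups were taken from the titles. All 12393 genes were fitted with limma 3.58.1 in R 4.3.3 (lmFit, eBayes with trend), and p-values (two-sided) were adjusted by Benjamini-Hochberg over the whole table, with a threshold of 0.05; a log2 change is USP7-titled minus control. The fit was tested on simulated data with independent normal noise, few changed genes and larger changes than many called here. That test does not cover the smaller calls. The 3 arrays per group limit the precision. The median residual SD was 0.136. Sums of signal used 2 to the power of the log2 value. Same-numbered arrays of the groups did not deviate together (correlations of 0.0785, -0.0599 and 0.094), so numbers were not used as pairs. The members and lists were chosen with earlier results of these data known. All 36 members are named; from lists of further genes up to 4 with the largest change past the threshold, and from marker lists up to 3 plus the 2 brightest. Alternatives changed scaling, filter, probe sets, variance model, weights, block, threshold and arrays.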

Additional observations from a re-analysis of the deposited data

How the results depend on the processing

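Of 23 called genes, 16 kept their call under each of the alternatives that tested them. Scaling to the hybridization spikes gave 5 neutrophil genes higher, 0 members lower, and median changes of 0.74, 0.75 and 0.92 for macrophage, neutrophil and shared genes. Of all genes, 23.9% were then higher and 7.62% lower. Leaving out the dimmest 40% of probe sets kept 12 members, of which 11 rose (4 macrophage, 1 neutrophil). Of all genes in that setting, 26.5% were higher and 22.9% lower. In control and USP7-titled arrays 0 and 4 members lay above the array median, and the medians were 1.79, 1.57 and 0.95. Brightness was taken over control and USP7-titled arrays together, so a member's own rise helped to keep it. These counts and medians therefore cannot be set against those of the full set. Averaged probe sets put 2 members above the median in controls and gave shared genes a median of 0.47. At a threshold of 0.01, 16 members rose (7 macrophage) and 0 fell. Without X and Y genes 34 members were left, of which 22 rose and 0 fell, and the macrophage median was 0.91. That setting removes Cybb, the only member that fell, and Vsig4, a macrophage gene at 0.03. The count of 0 and the shift of the median follow from these removals and do not test the results. Of all genes in that setting, 17.02% were higher and 15.98% lower. With the replicate number as a block 22 members rose and 1 fell, and no member's call changed. The shares of all genes were then 16.9% higher and 15.8% lower. Leaving out each array gave 18 to 20 members higher, with 1 lower each time. Of all genes, 13.7% to 16.9% were then higher and 11.5% to 15.5% lower. The members higher were 7 to 11 macrophage, 2 to 3 neutrophil and 7 to 8 shared genes. Above the array median lay 9 to 12 members in USP7-titled arrays and 1 in controls. Medians were 0.54 to 0.80, 0.54 to 0.76 and 0.72 to 0.81 for macrophage, neutrophil and shared genes. Members that did not pass changed sign in places: Csf3r was at 0.0091 with spike scaling, and with each array left out in turn Msr1 ran from -0.084 to 0.111, Fcgr2b from -0.088 to 0.262, Tlr4 from -0.057 to 0.112 and Tlr2 from -0.067 to 0.269; the cause was not tested.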
